A study of Homo sapiens with 6 samples.

Results

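The ribosomal proteins of the cytosol were followed in ARPE-19 cells, an established line of human retinal pigment epithelium, the cell layer that underlies the photoreceptors. The 84 genes were those of the deposited gene table whose symbol is that of a large-subunit (RPL) or small-subunit (RPS) protein and whose transcripts include a protein-coding one, out of 60612 genes. They were 46 genes of the large (60S) subunit, 31 of the small (40S) subunit, and 7 paralogs, RPL3L, RPL7L1, RPL10L, RPL22L1, RPL26L1, RPL39L and RPS27L. The table's own descriptions named all 84 as ribosomal proteins, and its pathway column placed 82 in the ribosome, all but RPL7L1 and RPL39L. Of 6 libraries, 3 held RNA of such cells after transfection of miR-204-5p, which the sample titles call over-expressed, and 3 RNA of the same line after transfection of the control miR-NC, with no other difference in treatment given. The labels state neither the time after transfection, nor the dose, nor the sequence of miR-NC. The series looked for targets of miR-204-5p, and the replicates are described by the submitters as biological.

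A ribosome holds 1 copy of most of its proteins, so cells make these proteins in matched amounts. In mammals the messenger RNAs of nearly all of them begin with a cytosine followed by a run of pyrimidines, the terminal oligopyrimidine (TOP) motif, through which the kinase complex mTORC1 and the binding protein LARP1 control their translation and stability. The genes have also left many processed pseudogenes in the human genome, whose sequence is close to that of their parents.

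The microRNA that was transfected is shown first because its seed, bases 2 to 8 from the 5′ end and printed in capitals, sets which sites were searched. The sequence is from RefSeq, build GRCh38.p14, minus strand of chr9:70810031-70810052.
hsa-miR-204-5p: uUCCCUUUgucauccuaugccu

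Few ribosomal protein transcripts carry a match to this seed. In the 3′ untranslated region (UTR) of 1 representative transcript per gene (GENCODE release 29, GRCh38), an 8mer (AAAGGGAA) was found in RPL38 and RPS27L. A 7mer-m8 (AAAGGGA) was the best match in RPL7L1, RPL22L1, RPL13A and RPS23, a 7mer-A1 (AAGGGAA) in RPL37, and a 6mer (AAGGGA) in RPL23, RPS6 and RPL10. The remaining 74 genes (88.1%) held none of these, against 66.1% of 10698 genes tested that had such a region. An 8mer or 7mer-m8 stood in 7.14% of the members and in 15.8% of the genes tested, and the median 3′ UTR was 75 bases in the members and 918 bases in the genes tested. With the longest annotated 3′ UTR of each gene the shares were 9.52% and 18.6%. The first 8mer or 7mer-m8 of each of the 6 genes is shown, with the site in capitals and 8 bases on each side.
RPL38: cggatgggAAAGGGAAaaatgcta
RPS27L: atgccatcAAAGGGAAtgtagtgc
RPL7L1: tgatggttAAAGGGAttaaacaa
RPL22L1: ctgctacaAAAGGGAgggcttaa
RPL13A: tatgagtgAAAGGGAgccagaag
RPS23: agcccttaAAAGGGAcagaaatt
These sites lie at chr17:74209905-74209912 (plus strand), chr15:63151800-63151807 (minus), chr6:42889734-42889740 (plus), chr3:170864911-170864917 (minus), chr19:49492058-49492064 (plus) and chr5:82273404-82273410 (minus), in that order. A match of letters is a description and not evidence of binding, and which 3′ ends these cells used was not analysed here.

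The starts of the transcripts show the other sequence that sets these genes apart. RefSeq's table of promoters (GRCh38.p14) held 67 of the 84 genes. A cytosine followed by at least 4 pyrimidines began exactly at an annotated start in 47 of the 67 (70.1%) and in 988 of 15843 protein-coding genes (6.24%). Within 5 bases of the start the shares were 80.6% and 28.0%, and within 10 bases 86.6% and 41.1%. The letters CCGGAAG, searched on both strands from 250 bases before to 50 bases after the start and free to overlap other motifs, stood in 35.8% of the members and 16.5% of all genes, and TATAAA in 10.4% and 12.4%. In the lines below, 15 bases before and the first 15 bases after the annotated start are given for 3 main genes beside their paralogs and for members described further on, with the pyrimidine run at the start in capitals.
RPL26: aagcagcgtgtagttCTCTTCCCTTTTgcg
RPL26L1: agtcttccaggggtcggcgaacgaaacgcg
RPS27: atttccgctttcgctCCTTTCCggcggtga
RPS27L: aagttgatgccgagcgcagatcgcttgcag
RPL22: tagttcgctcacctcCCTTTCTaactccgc
RPL22L1: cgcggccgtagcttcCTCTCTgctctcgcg
RPL7L1: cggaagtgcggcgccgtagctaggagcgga
RPL39: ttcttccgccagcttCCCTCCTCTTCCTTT
RPS12: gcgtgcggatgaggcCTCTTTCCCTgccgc
RPS6: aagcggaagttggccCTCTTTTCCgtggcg
RPS19: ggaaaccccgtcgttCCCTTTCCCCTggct
RPL26, RPS27, RPL22, RPL39, RPS12, RPS6 and RPS19 begin with such a run, which in RPL39 goes on past the bases shown to 19 pyrimidines. Of the paralogs shown, RPL22L1 also has one, while RPS27L, RPL7L1 and the shown start of RPL26L1 have none. A further annotated start of RPL26L1 has none either, nor has a further start of RPS19.

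Ribosomal protein transcripts were among the most abundant in these cells. Levels are given as FPKM, the sequenced fragments per kilobase of a transcript relative to those mapped in the whole library, which corrects for transcript length and so allows genes to be compared. The sum over the 84 genes was 31423, 23644 and 32541 FPKM in miR-204-5p replicates 1, 2 and 3, and 24038, 23420 and 30319 FPKM in miR-NC replicates 1, 2 and 3. That was between 7.51% and 9.49% of all FPKM of a library. The median over the 77 main genes was 236 FPKM. The highest means over the 6 libraries were those of RPS12 (1630 FPKM), RPL41 (1223), RPS2 (1065), RPL13A (1060) and RPL19 (986), which together made up 21.6% of the members' sum. RPS12 is a small-subunit protein. RPL41, with the shortest coding sequence here (75 bases against a median of 454.5 in the members and 1341 in the genes tested), encodes a very small basic protein of the large subunit. The lowest main gene was RPS29, a zinc-binding protein of the 40S head, at 21.2 FPKM. The paralogs were low as well, with RPL22L1 at 40.2, RPS27L at 29.9, RPL26L1 at 24.4, RPL39L at 15.7 and RPL7L1 at 7.94 FPKM. RPL3L, known from skeletal muscle and heart, was listed at 0 in 4 libraries and reached 0.041 FPKM, and RPL10L, known from testis, was listed at 0 in all 6. These 2 genes failed the filter of at least 0.5 FPKM in at least 3 libraries, so 82 members entered the test.

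As facts of the whole series, the rough depth was about 19000000 to 23300000 read pairs per library, so that 100 FPKM over a length of 0.5 kb stands for 950.0 pairs at the lowest depth. The libraries did not group by treatment. Along the first principal component (54.1% of the variance), miR-204-5p replicates 1 and 3 and miR-NC replicate 3 lay at 15.3, 41.1 and 32.4, and miR-204-5p replicate 2 and miR-NC replicates 1 and 2 at -29.6, -26.1 and -33.1. Genes of the ribosomal RNA precursor, which carries no poly(A) tail, took 8.57% of the FPKM of miR-204-5p replicate 3 and 0.407% to 0.565% elsewhere. Mitochondrially encoded genes took 20.8% to 24.7% in the first set of 3 libraries named and 28.8% to 30.0% in the other. Of 12 markers of retinal pigment epithelium, 4 passed the filter (RLBP1, BEST1, MITF and OTX2) and TYR and TTR were listed at 0 in every library, while RPE65, the visual-cycle isomerase, stayed at or below 0.029 FPKM. The epithelial keratins KRT8 and KRT18 averaged 140 and 219 FPKM. Of 14 markers of fibroblasts, neurons, photoreceptors, endothelium and immune cells, 3 passed the filter (COL1A1, TUBB3 and CD68). The summed level of all 14 was 77.8 to 90.1 FPKM with miR-204-5p and 46.4 to 80.6 FPKM with miR-NC. TUBB3 was at 11.7 FPKM in miR-NC replicate 1, the library with the lowest sum, and at 39.0 to 51.5 FPKM elsewhere. The part of these markers in the values below was not tested.

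The ribosomal protein genes moved as a block between libraries, and the high libraries were those at the positive end of the first component. They came from both groups, and a part of treatment cannot be told apart from this spread with 3 libraries a group. For each gene, the mean of log2(FPKM + 1) over the 6 libraries was subtracted from each library's value. The median deviation of the 82 genes was 0.21 in miR-204-5p replicate 1, -0.20 in replicate 2 and 0.26 in replicate 3. It was -0.18, -0.24 and 0.13 in miR-NC replicates 1, 2 and 3. Thus 75, 11 and 77 of the 82 genes stood above their own mean in the miR-204-5p libraries, and 11, 9 and 61 in the miR-NC libraries. Replicates 1 and 3 of miR-204-5p and replicate 3 of miR-NC were the high libraries, and the groups overlapped. Over all genes tested the medians lay between -0.10 and 0.09.

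**Figure D1:**
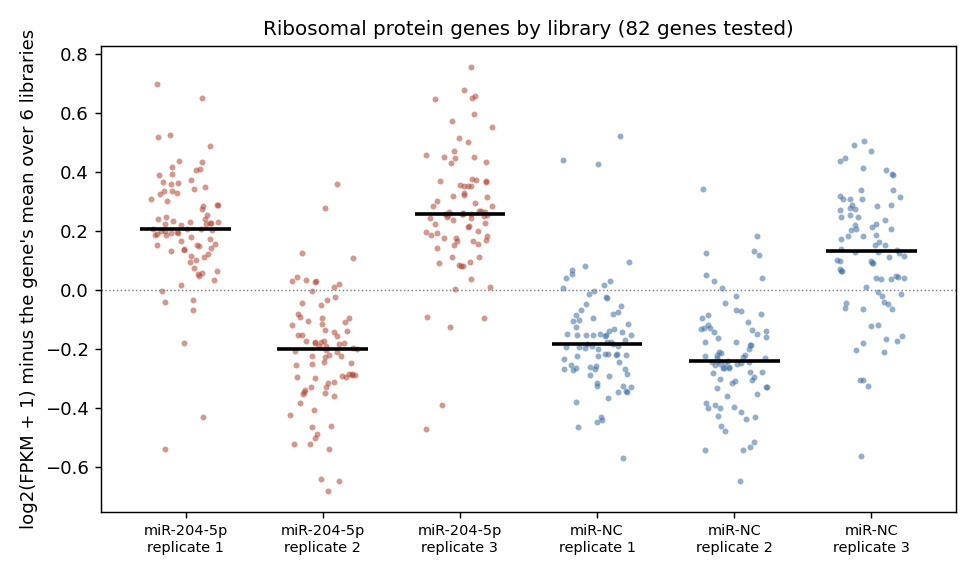
Log2(FPKM + 1) of the 82 ribosomal protein genes tested, minus each gene's mean over the 6 libraries, by library. Each point is 1 gene and the black line is the median; the medians of miR-204-5p replicates 1 and 3 (0.21 and 0.26) and miR-NC replicate 3 (0.13) lie above 0 and those of the other libraries below it.

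The members differed in how closely they kept to the block. The Pearson correlation of a gene's deviations with the median deviation of the other members, over 6 libraries, had a median of 0.94 and was above 0.9 in 49 genes. It was below 0.5 in 15 genes and below 0 in 6, among them RPL14, RPS18, RPL5, RPL4 and RPL7; RPS18 and RPL4 were named after their values were seen. All these values share the same 6 libraries and describe them only. RPL14, a large-subunit protein, ran opposite to the block, at 42.8, 62.6 and 36.8 FPKM in the miR-204-5p libraries and 65.6, 61.8 and 32.5 FPKM in the miR-NC libraries, with a correlation of -0.91. It was low in the libraries where most members were high. RPS18, a small-subunit protein of the head, hardly varied, at 678, 702 and 717 FPKM with miR-204-5p and 712, 765 and 622 FPKM with miR-NC. The standard deviation of log2 values over the 6 libraries ran from 0.06 to 0.55 among the members, with a median of 0.27.

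Base composition moved with the block. Across the 82 genes, the correlation of the deviation with the GC content of the coding sequence was 0.26, -0.33 and 0.26 in miR-204-5p replicates 1, 2 and 3, and -0.48, -0.35 and 0.52 in the miR-NC replicates. Over all genes tested with a coding sequence it was 0.22, -0.28 and 0.25, and -0.25, -0.32 and 0.29. The sign was thus positive in the libraries where the members were high and negative where they were low, among members and among all genes. With coding length the members' correlations had the opposite signs, -0.11, 0.28 and -0.40, and 0.22, 0.32 and -0.21. Over all genes tested with a coding sequence they were -0.21, 0.30 and -0.29, and 0.28, 0.28 and -0.25, with the same signs as in the members. The members' median GC was 51.0% and that of 10874 genes tested was 52.5%, and the members are much shorter. These are correlations across genes, which are not independent, and the part of GC content, length or the ribosomal RNA precursor in the members' values was not tested.

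**Figure D2:**
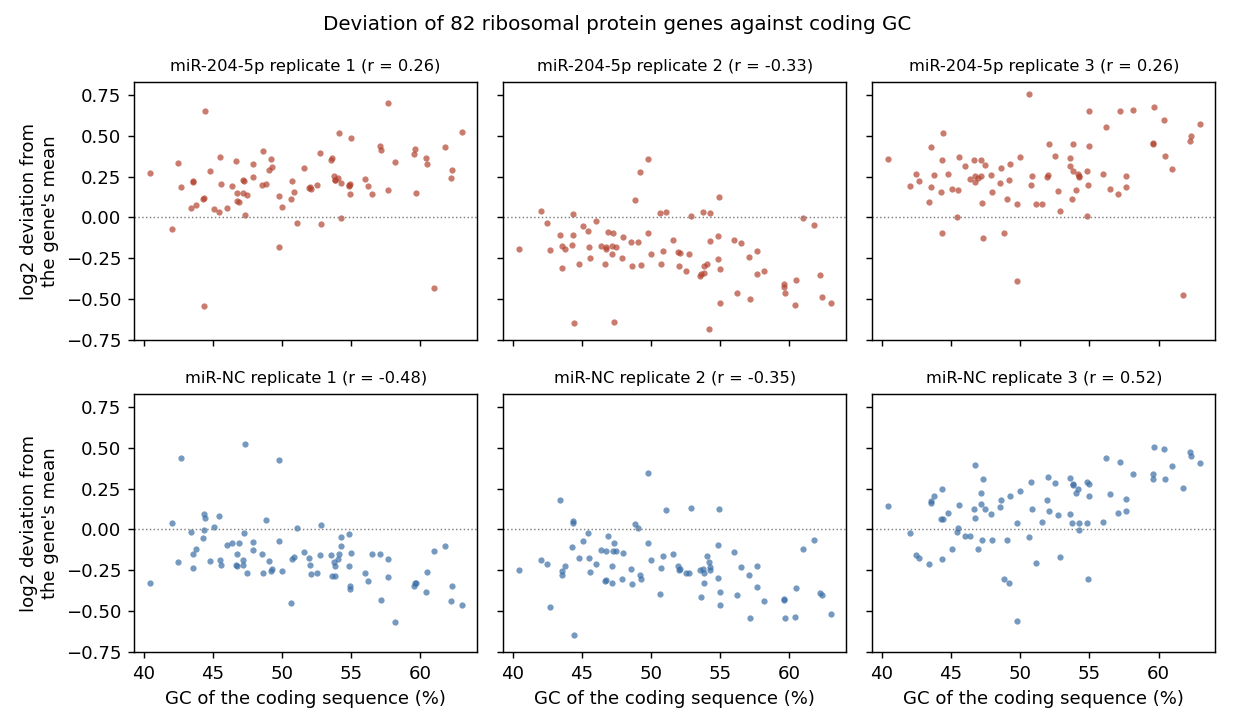
Deviation of each of the 82 ribosomal protein genes from its own mean (log2 scale) against the GC content of its coding sequence, in percent, with 1 panel per library and 1 point per gene. The cloud slopes up in miR-204-5p replicates 1 and 3 and miR-NC replicate 3 (r = 0.26, 0.26 and 0.52) and down in the other 3 libraries.

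Between treatments, no ribosomal protein gene passed the test. The comparison asked whether the transcripts differed between cells given miR-204-5p and cells given miR-NC, with limma on log2(FPKM + 1) over all 13151 genes that passed the filter and Benjamini-Hochberg adjustment over all of them. Of 82 members, 0 had an adjusted p under 0.05 (limma; 0% of all genes tested), and the smallest adjusted p was 0.9999. An unadjusted p under 0.05 was reached by 2 members (2.44%), RPL26L1 and RPL32, which is near the 2.08% of all genes tested. Both had the higher mean with miR-204-5p, as had 1.16% of all genes tested at that p. The 84 genes summed to a mean of 29203 ± 4846 FPKM in the miR-204-5p libraries and 25925 ± 3817 FPKM in the miR-NC libraries (SD, n = 3 per group), a log2 ratio of 0.17, or 0.066 after quantile normalization. The groups overlapped and the difference was smaller than either SD. In RNA of a whole culture, fewer cells with a transcript and less of it per cell cannot be told apart. As a share of all FPKM the members took 8.65% ± 0.97 and 7.99% ± 0.77 (SD, n = 3 each).

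Most members had a positive fold change. The log2 fold change, miR-204-5p minus miR-NC, was positive in 76 of 82 (92.7%; 46.9% of all genes tested) with a median of 0.18 (-0.02 over all genes tested). With quantile normalization 62 were positive and the median was 0.078 (50.2% and 0.0013 over all genes tested). With TPM scaling 72 were positive and the median was 0.13 (39.7% and -0.067 over all genes tested). Because the members move as a block, these 76 are not separate observations. The large subunit had 44 of 46 positive with a median of 0.19, the small subunit 28 of 31 with a median of 0.17, and the paralogs 4 of 5 with a median of 0.29. The ratio of summed small-subunit to summed large-subunit FPKM was 0.720 ± 0.019 with miR-204-5p and 0.734 ± 0.019 with miR-NC (SD, n = 3 each), which differed by less than the spread between replicates. The median was 0.087 when miR-204-5p replicate 3 was left out, 0.11 when replicate 1 was and 0.11 when miR-NC replicate 2 was. Leaving out miR-204-5p replicate 2, the low library of its group, gave 0.32, and leaving out miR-NC replicate 3, the high library of its group, gave 0.29.

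**Figure D3:**
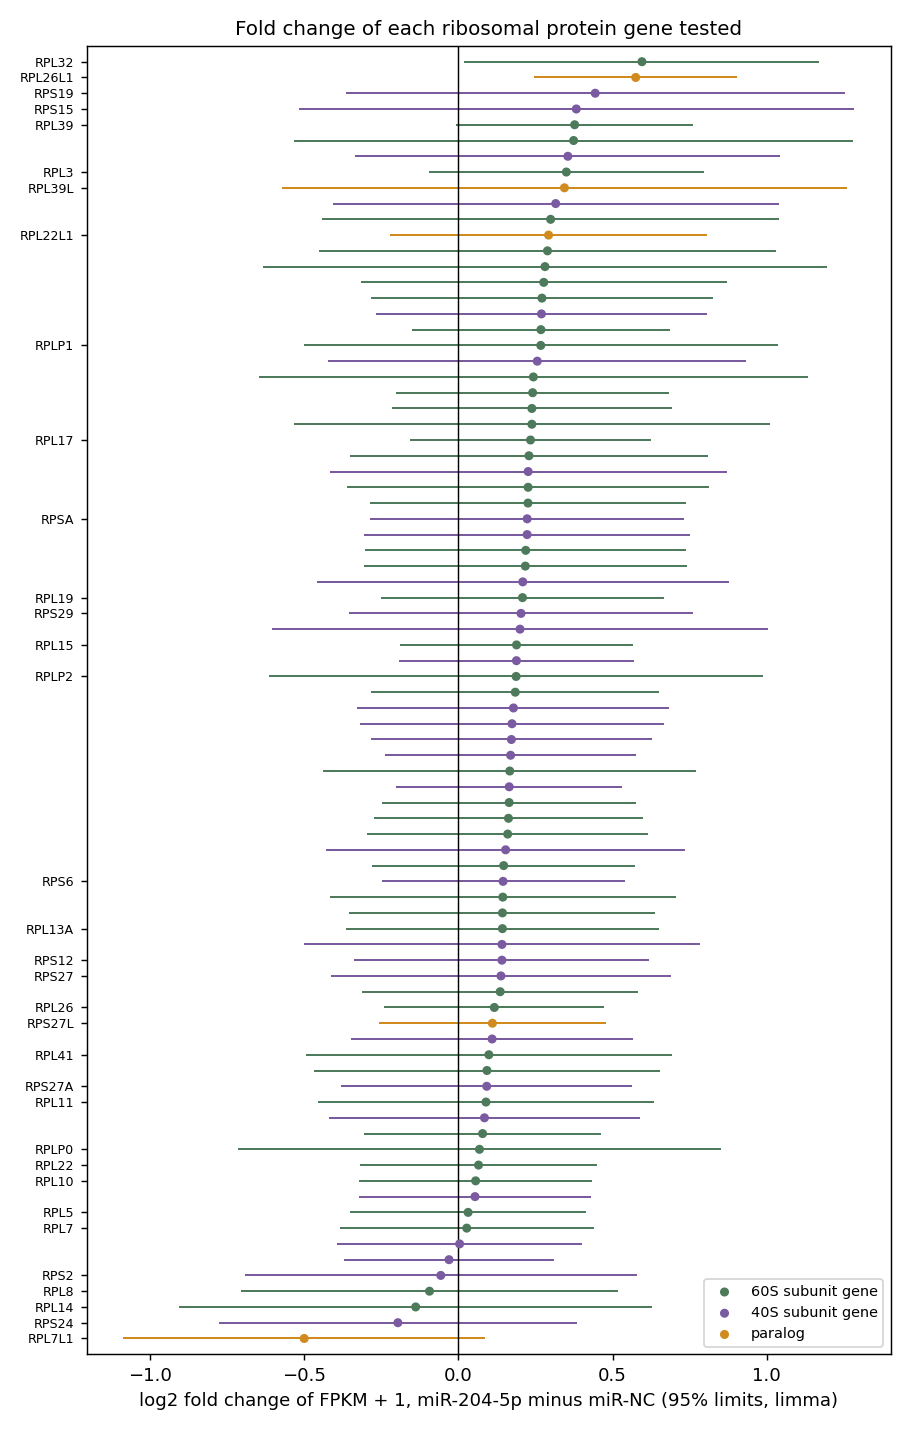
Log2 fold change of FPKM + 1 (miR-204-5p minus miR-NC) of each of the 82 genes tested, sorted, with 95% limits from limma; colours mark the 60S subunit, the 40S subunit and the paralogs, and symbols are written for the members chosen for naming. The limits of RPL32 and RPL26L1 lie above 0 and all others include 0; 76 points lie to the right of 0 and 6 to the left.

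In 6 members every miR-204-5p library exceeded every miR-NC library (7.32%; 3.77% of all genes tested), and in 0 members the reverse held (2.17% of all genes tested). These were RPL26L1, RPL32, RPL39, RPL3, RPL17 and RPL15, all of the large subunit or a paralog of it. In either direction that made 6 members of 82, beside 5.95% of all genes tested. The count of higher members became 46 when miR-204-5p replicate 2 was left out and 17 when miR-NC replicate 3 was, where 12.9% and 10.2% of all genes tested lay apart in this direction. When scaling left out ribosomal RNA precursor and mitochondrial genes, 4 members lay apart as higher, beside 3.32% of all genes tested. They were RPL26L1, RPL32, RPL39 and RPL7A. RPL7L1 was then lower in every miR-204-5p library, and RPL3, RPL17 and RPL15 overlapped. RPL7L1 also lay apart as lower without miR-204-5p replicate 1 or without miR-NC replicate 2, and RPS24 without miR-204-5p replicate 3.

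RPL26L1 separated most cleanly. It encodes a near copy of RPL26, a large-subunit protein at the rim of the polypeptide exit tunnel, and lies at chr5:172958729-172969771 on the plus strand (ENSG00000037241). Its level was 30.9, 29.2 and 28.2 FPKM in miR-204-5p replicates 1, 2 and 3 and 19.8, 19.5 and 18.9 FPKM in the miR-NC replicates. The groups lay far apart beside their spread, and the gene did not follow the block (correlation 0.40). The means of 29.4 ± 1.40 and 19.4 ± 0.50 FPKM (SD, n = 3 each) gave 0.58 as the log2 fold change, with a standard error of 0.14 and 95% limits of 0.25 to 0.90 (limma, unadjusted p = 0.00442, adjusted p = 0.9999). The fold change stayed between 0.54 and 0.60 whichever library was left out. The main gene RPL26 stood at 186, 174 and 203 FPKM with miR-204-5p and 182, 171 and 165 FPKM with miR-NC, and its groups overlapped. RPL26L1 amounted to 16.6%, 16.8% and 13.9% of RPL26 with miR-204-5p and 10.9%, 11.4% and 11.4% with miR-NC. The coding sequences of both have 435 bases, are 84.1% identical and share no run longer than 20 bases, and a read has 150 bases. Whether reads were shared between RPL26L1 and RPL26 was not tested. No pseudogene named after RPL26L1 had signal, and its representative 3′ UTR holds no seed match.

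RPL32, a large-subunit protein, had the largest fold change and followed the block. Its level was 196, 185 and 307 FPKM with miR-204-5p and 133, 138 and 176 FPKM with miR-NC. Replicate 3 was the highest of each group, and the lowest miR-204-5p value was close above the highest miR-NC value. The log2 fold change was 0.60 with limits of 0.02 to 1.17 (limma, unadjusted p = 0.0445, adjusted p = 0.9999), and 0.37 without miR-204-5p replicate 3.

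RPL39, a very small protein of the exit tunnel, stood at 144, 111 and 137 FPKM with miR-204-5p and 99.3, 98.4 and 102 FPKM with miR-NC. The miR-NC values lay close together, below all 3 others. Its log2 fold change was 0.38 with limits of -0.01 to 0.76. Its pseudogene RPL39P3, with a level above its parent's, stood at 162, 115 and 146 FPKM and 102, 98.0 and 105 FPKM, which is the same order of groups, and reads of parent and copy may have been shared. The paralog RPL39L, 94.8% identical to RPL39 in coding sequence with a shared run of 44 bases, stood at 23.6, 9.02 and 21.4 FPKM with miR-204-5p and 15.5, 9.01 and 15.4 FPKM with miR-NC, and overlapped. Its replicate 2 was low in both groups.

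RPL3, a protein next to the peptidyl transferase centre, stood at 574, 543 and 572 FPKM with miR-204-5p and 392, 543 and 404 FPKM with miR-NC. The groups touch, since replicate 2 of each lay at 543 FPKM. Its log2 fold change was 0.35 with limits of -0.10 to 0.80. Its pseudogene RPL3P4 had the higher mean over all libraries but lay below RPL3 in replicate 2 of each group, at 657, 440 and 922 FPKM with miR-204-5p and 471, 441 and 839 FPKM with miR-NC, and with the family's pseudogenes added RPL3 no longer separated. RPL17 stood at 209, 198 and 251 FPKM against 188, 173 and 196 FPKM, with a log2 fold change of 0.23. RPL15 stood at 137, 140 and 164 FPKM against 133, 117 and 137 FPKM, with a log2 fold change of 0.19. In both the gap between the groups was narrow beside the spread within them.

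**Figure D4:**
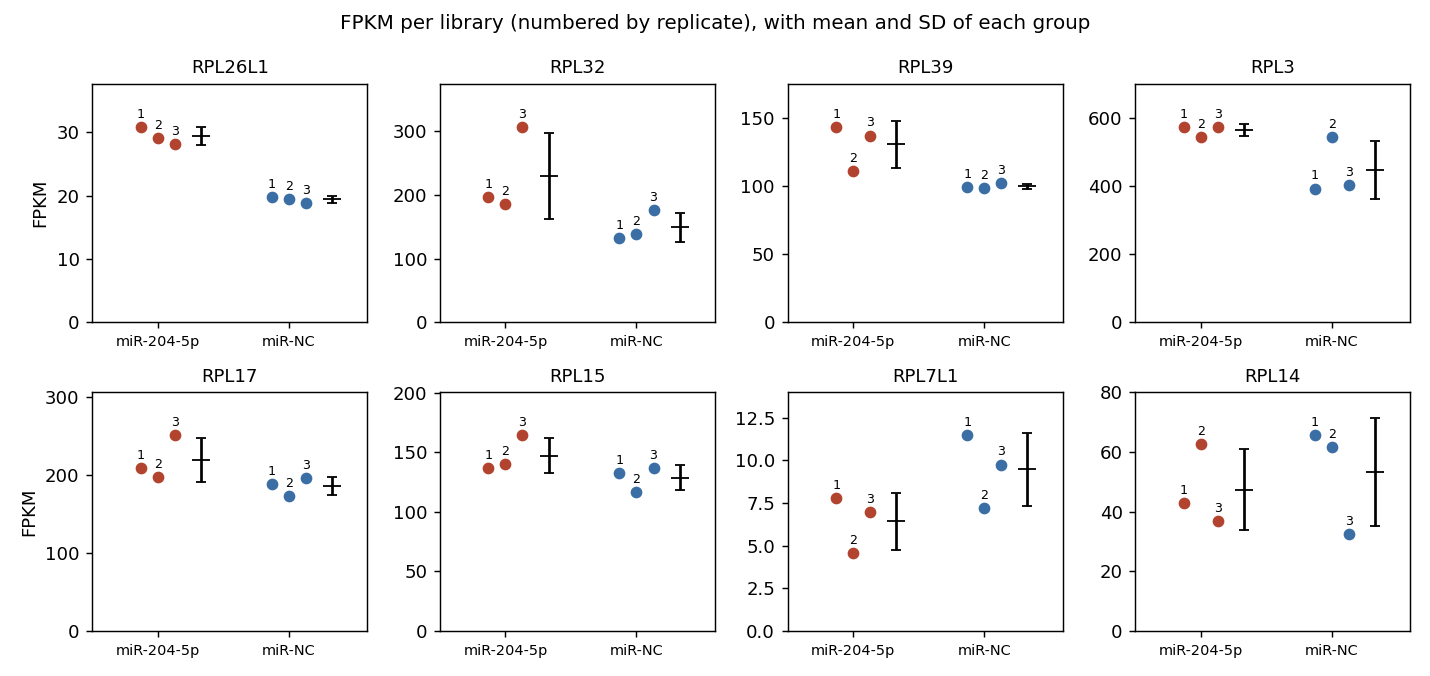
FPKM in each of the 6 libraries, numbered by replicate, with the mean and SD of each group beside them, for the 6 members whose groups did not overlap and for RPL7L1 and RPL14. RPL26L1 lies at 28.2 to 30.9 FPKM with miR-204-5p and at 18.9 to 19.8 with miR-NC, while RPL14 spans 32.5 to 65.6 FPKM within miR-NC alone.

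Other large positive fold changes belonged to genes that varied with the block. RPS19, an assembly-critical small-subunit protein mutated in Diamond-Blackfan anaemia, stood at 498, 314 and 622 FPKM with miR-204-5p and 265, 291 and 499 FPKM with miR-NC. RPS15, a protein of the 40S head, stood at 176, 84.6 and 182 FPKM and at 88.2, 85.1 and 162 FPKM. In both genes the 3 high libraries were those of the block and the groups overlapped. Their log2 fold changes were 0.44 (limits -0.37 to 1.25) and 0.38 (limits -0.52 to 1.28).

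In 6 members the log2 fold change was negative, and in none did the limits exclude 0. RPL7L1, a relative of RPL7 that takes part in assembly of the large subunit, had the most negative log2 fold change, -0.50 with limits of -1.09 to 0.09 (limma, unadjusted p = 0.0836, adjusted p = 0.9999). Its values were 7.77, 4.56 and 6.95 FPKM with miR-204-5p and 11.5, 7.19 and 9.75 FPKM with miR-NC. Replicate 2 was the lowest and replicate 1 the highest in both groups, and only miR-204-5p replicate 1 reached into the miR-NC range. RPL7L1 shares 54.8% of its coding bases with RPL7 and no run over 11 bases, and it is 1 of the members with a 7mer-m8 match. The main gene RPL7 stood at 324, 289 and 333 FPKM and 309, 353 and 269 FPKM, a log2 fold change of 0.03.

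The other negative values were smaller. RPS24 had -0.20, RPL14 -0.14, RPL8 -0.09, RPS2 -0.06 and RPS23, named after its values were seen, -0.03. RPS2, near the messenger RNA entry of the 40S subunit, stood at 1411, 1012 and 752 FPKM with miR-204-5p and 974, 997 and 1246 FPKM with miR-NC. RPS24 stood at 71.3, 96.7 and 133 FPKM and 104, 108 and 124 FPKM. In both the miR-204-5p values spread over the whole miR-NC range. RPS24, RPL14, RPL8 and RPS2 had a positive fold change without 1 of the libraries.

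The 6 genes with an 8mer or 7mer-m8 match did not go one way. The log2 fold change was positive in 4, at 0.29 for RPL22L1, 0.27 for RPL38, 0.14 for RPL13A and 0.11 for RPS27L, and negative in RPL7L1 and RPS23, with a median of 0.13. The 72 members tested without any match had a median of 0.19. RPL38, a small large-subunit protein known in mice for a role in Hox translation and named here for its 8mer, stood at 157, 101 and 158 FPKM with miR-204-5p and 106, 99.0 and 135 FPKM with miR-NC. RPS27L, a p53-responsive copy of RPS27, stood at 28.4, 30.7 and 34.1 FPKM and 30.7, 26.0 and 29.3 FPKM. Both overlapped between groups, the first in the order of the block. RPS27L amounted to 3.40% to 5.00% of RPS27 in each library.

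RPL22L1, which in mice is held down by RPL22 and takes its place when it is lost, stood at 48.0, 34.5 and 50.9 FPKM with miR-204-5p and 31.3, 33.1 and 43.7 FPKM with miR-NC. It was 42.1%, 36.9% and 43.3% of RPL22 with miR-204-5p and 30.9%, 33.8% and 39.7% with miR-NC, and the groups overlapped.

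Members named for known roles beyond the core of the ribosome had overlapping groups. RPL5 and RPL11, which with 5S ribosomal RNA form the particle that can bind MDM2, differed from each other across libraries. RPL5 stood at 235, 219 and 202 FPKM with miR-204-5p and 231, 222 and 191 FPKM with miR-NC, lowest in replicate 3 of each group. RPL11 stood at 411, 288 and 404 FPKM and 310, 298 and 430 FPKM, high in the 3 libraries where the block was. Their log2 fold changes were 0.03 and 0.09. The stalk proteins RPLP0, RPLP1 and RPLP2, which recruit elongation factors, had log2 fold changes of 0.07, 0.27 and 0.19. RPLP0 was lowest in miR-204-5p replicate 2, at 209 FPKM, and reached 482 FPKM in replicate 1 of the same group. RPS6, the substrate of S6 kinase, stood at 609, 489 and 556 FPKM with miR-204-5p and 514, 477 and 499 FPKM with miR-NC, a log2 fold change of 0.14. RPSA, the laminin receptor precursor, had 0.22, and RPS27A, made as a fusion with ubiquitin, had 0.09. Of the 16 members in a list of Diamond-Blackfan anaemia genes, 15 were positive with a median of 0.19, and 0 were called. In 1 of the 16 every miR-204-5p library exceeded every miR-NC library, as in 3.77% of all genes tested.

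Pseudogenes bear on which of these levels are the gene's own. The table held 1236 genes named as pseudogenes of members, of which 168 passed the filter. Their sum moved with that of the members, from 5935 to 8268 FPKM, at a ratio of 0.251 to 0.263 to the members' sum. In 8 families the pseudogenes held more than 50% of the family's FPKM, namely RPL10, RPS28, RPL9, RPS7, RPL14, RPL7, RPL39 and RPL3. In RPL10 the pseudogenes held 75.2% and in RPL14 66.6%. In total 8 pseudogenes stood above their parent, among them RPS28P7 at 623 FPKM against 234 FPKM for RPS28 and RPL9P7 at 279 FPKM against 112 FPKM for RPL9. The labels do not say how reads were split between such copies, so the levels of these parents are uncertain. With each gene and its pseudogenes summed, the median log2 fold change was 0.18. Every miR-204-5p library then exceeded every miR-NC library in 4 members of 82, RPL17, RPL26L1, RPL32 and RPL39. Beside this stood 3.76% of all genes tested.

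The members were set beside lists of related genes. FAU (RPS30) and RPL36AL, which encode ribosomal proteins but fall outside the naming rule, had log2 fold changes of 0.24 and 0.21. FAU stood at 188, 129 and 200 FPKM with miR-204-5p and 132, 124 and 179 FPKM with miR-NC. It was also the non-member most like the block, with a correlation of 0.999 over 6 libraries. The next were NOSIP, ATP5MD, HSD17B10 and the pseudogene RPL13AP25, all at or above 0.997. The 78 mitochondrial ribosomal proteins, which belong to another ribosome and are not TOP genes as a class, had 64 positive fold changes with a median of 0.13, from -0.59 for MRPS14 to 0.53 for MRPL38. Their library medians were 0.21, -0.12 and 0.09 with miR-204-5p and -0.06, -0.20 and 0.04 with miR-NC, with the same signs as the cytosolic proteins.

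Other genes known for the TOP motif were 17, mostly translation factors, with VIM, NPM1, HNRNPA1, NAP1L1, TPT1 and RACK1 among them. Of these 17 genes 5 were positive, with a median log2 fold change of -0.06, from -0.57 for EIF4B to 0.33 for EIF3F. Their library medians were 0.08, 0.10 and -0.31 with miR-204-5p and 0.16, 0.12 and -0.19 with miR-NC. The median of this list was thus lowest in replicate 3 of both groups, where that of the ribosomal proteins was high, but its genes differed. EEF1A1, the factor that delivers aminoacyl-tRNA, stood at 1525, 1854 and 748 FPKM with miR-204-5p and 1677, 1898 and 959 FPKM with miR-NC. EEF2, the translocase, stood at 732, 888 and 482 FPKM and 842, 840 and 499 FPKM, so both were lowest in replicate 3 of each group. EEF1G, a subunit of the factor that recharges EEF1A1, was highest there, at 743, 400 and 903 FPKM and 689, 735 and 915 FPKM. RACK1, a scaffold protein of the 40S subunit, was high in the same libraries as the block, at 227, 141 and 223 FPKM and 172, 142 and 196 FPKM. Among the members themselves, those with a pyrimidine run at an annotated start had 44 of 47 positive with a median of 0.18, and those without had 18 of 19 with a median of 0.20. In 1 of the 47 and 5 of the 19 every miR-204-5p library exceeded every miR-NC library, as in 3.77% of all genes tested. Members without a RefSeq promoter entry are in neither set.

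**Figure D5:**
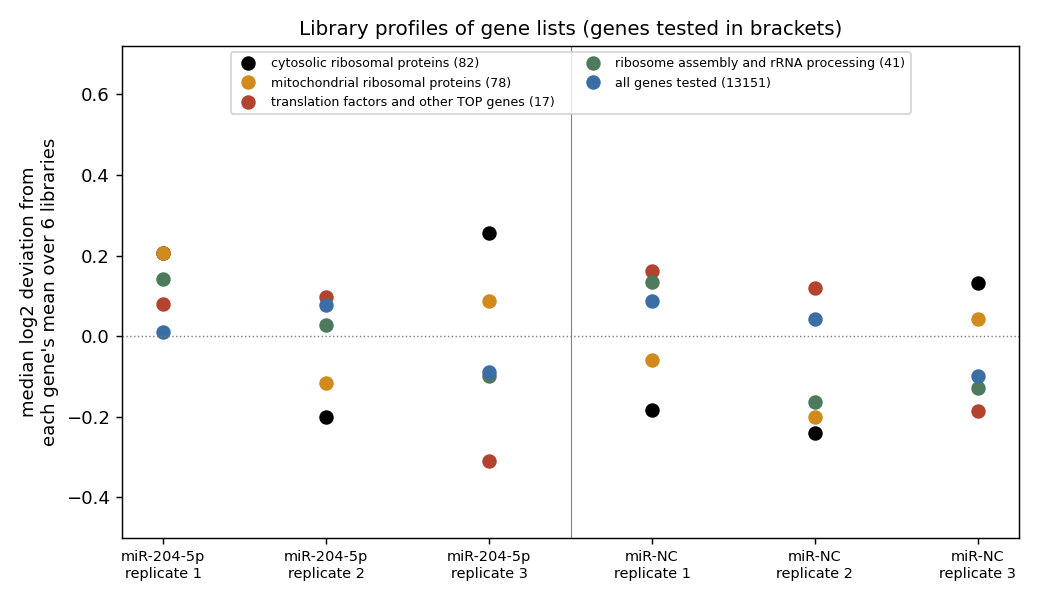
Median deviation (log2 scale) of each gene list from the genes' own means over 6 libraries, by library; numbers of genes tested stand in brackets. The cytosolic ribosomal proteins lie above 0 in miR-204-5p replicates 1 and 3 and miR-NC replicate 3 and below 0 elsewhere, while the list of translation factors and other TOP genes lies at -0.31 and -0.19 in replicate 3 of the groups.

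Genes that build or supply ribosomes had list medians of 0.03 to 0.10, with single genes on either side. RNA polymerase I and its factors had 9 of 13 positive with a median of 0.03, from -0.45 for RRN3 to 0.47 for POLR1B. Ribosome assembly and rRNA processing genes had 28 of 41 positive with a median of 0.10, from -0.22 for TSR1 to 0.40 for EBNA1BP2. Genes of mTORC1 and the control of TOP translation had 8 of 14 positive with a median of 0.03, from -0.65 for RPS6KB1 to 1.20 for MYC. In each of these lists 0 genes had an adjusted p under 0.05 (limma), as among all genes tested.

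In the authors' deposited table, 0 members were among the 194 genes marked as changed, and the smallest q of a member was 1. The smallest p-values of members in the authors' deposited table were 0.0904 for RPL32, 0.0949 for RPL26L1 and 0.181 for RPL7L1.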

How the data were processed

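Poly(A) RNA of 6 ARPE-19 libraries was sequenced as strand-marked read pairs, per the labels' protocols. The authors deposited 1 FPKM column per library, with 0.0001 in place of 0 (set to 0 here). The submitters' processing notes name StringTie 1.3.4d, HISAT2 2.0.4, cutadapt 1.9, DESeq2 and edgeR, with build GRCh38. For each gene the deposited table also held a fold ratio, its log2, a q-value and a p-value; no source used here names the test.

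Here, a limma model (version 3.58.1, R 4.3.3), trended on mean expression and without covariates, was fitted to log2(FPKM + 1) of the 13151 genes with at least 0.5 FPKM in at least 3 libraries. P-values were adjusted over all of them by the Benjamini-Hochberg method (threshold 0.05, two-sided), and limits are 95% limits. Fold changes on this scale understate the change of low genes. The script was tested on simulated data. Coordinates, coding sequences and UTRs are from GENCODE 29 (GRCh38), with 1 representative transcript per gene (principal by annotation, then best supported, then shortest).

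The members, lists and tests were chosen with earlier results of these data known. Named members were the 5 largest and 5 most negative fold changes, those whose groups did not overlap, the 5 highest and 5 lowest levels, paralogs with their main copies, genes below the filter, and RPL5, RPL11, RPLP0, RPLP1, RPLP2, RPS6, RPSA and RPS27A; others, including those named for a seed match or a low correlation, were named after their values were seen. The genes taken as ribosomal RNA precursor include loci added after seeing their values. Depth was estimated from the FPKM step of 1 read pair and is rough, as 23.9% to 29.6% of low values lay within the tolerance. FPKM is relative, so 1 abundant RNA lowers every other value of its library. Same-numbered libraries correlated at 0.042, 0.55 and 0.52 in their deviations. Without values for differently numbered libraries beside them, these cannot decide whether the libraries are paired. The main model assumed no pairing, as the titles leave the meaning of the replicate numbers open. Some genes of these lists are not reported by name here.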

Additional observations from a re-analysis of the deposited data

How the results depend on the processing

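Members called stayed at 0 under each of 15 alternatives. The median log2 fold change of 0.18 ran from 0.078 with quantile normalization to 0.20 with median-of-ratios scaling, and from 0.087 to 0.32 when single libraries were left out. The log2 ratio of the summed FPKM (0.17) was 0.11 with TPM scaling and 0.066 with quantile normalization, and ran from 0.087 to 0.30 without single libraries. Pseudocount, filter and block do not enter that ratio and were not run for it. The 6 members whose groups did not overlap became 2 with median-of-ratios scaling (RPL26L1 and RPL4) and 3 with quantile normalization, all higher. Of all genes tested, 3.41% and 3.78% lay apart as higher under these scalings. The cause of these lower counts was not tested. The count was 7 to 46 without single libraries, in either direction, with RPL7L1 or RPS24 lower in some settings. Leaving out a library cannot end a separation, so this count could only stay or rise. Without single libraries 6 to 46 members lay apart as higher, beside 5.44% to 12.9% of all genes tested. RPL26L1 stayed apart with TPM scaling, median-of-ratios scaling, quantile normalization and scaling without ribosomal RNA precursor and mitochondrial genes. It overlapped after centring on the members' median, added after seeing the data, where it had a log2 fold change of 0.39. The other alternatives could not end its separation, since they keep the order of its values or only leave out a library.

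Of 476 values of 34 named members under the alternatives other than centring, 442 kept their direction and 34 did not, in 14 members. The 442 include the values without a filter and with the replicate block, which equal the main ones by construction and test nothing. With TPM scaling RPL5 had -0.023 and RPL7 -0.028, and without ribosomal RNA precursor and mitochondrial genes -0.024 and -0.028. With quantile normalization negative values were -0.047 for RPL10, -0.081 for RPL11, -0.018 for RPL22, -0.074 for RPL41, -0.073 for RPL5, -0.125 for RPL7, -0.098 for RPLP0 and -0.024 for RPS27A. Centring takes the members' own shift from each, so that signs on both sides follow by construction, and the 14 positive values that became negative were -0.129 for RPL10, -0.096 for RPL11, -0.043 for RPL13A, -0.12 for RPL22, -0.069 for RPL26, -0.087 for RPL41, -0.154 for RPL5, -0.158 for RPL7, -0.117 for RPLP0, -0.044 for RPS12, -0.047 for RPS27, -0.094 for RPS27A, -0.075 for RPS27L and -0.041 for RPS6. Without single libraries, ranges that crossed 0 were -0.025 to 0.128 for RPL10, -0.0080 to 0.256 for RPL11, -0.051 to 0.086 for RPL5, -0.265 to 0.099 for RPL8, -0.173 to 0.426 for RPLP0, -0.421 to 0.025 for RPS24, -0.455 to 0.040 for RPL14, -0.0059 to 0.283 for RPL41, -0.071 to 0.124 for RPL7, -0.042 to 0.465 for RPLP2, -0.288 to 0.165 for RPS2, -0.012 to 0.291 for RPS27 and -0.014 to 0.218 for RPS27A. Apart from centring, the causes were not tested.

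With the replicate block 0 members were called and 4 had an unadjusted p under 0.05 (limma). No share over all genes tested stands beside that 4. The adjusted p of RPL26L1 was 0.661 with the block and 0.9999 without it (limma). A block of this kind cannot change the median of 0.18 or the 6 members apart (3.77% of all genes tested). Same-numbered libraries are not known to be paired.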
